A study of Homo sapiens with 13 samples.

Results

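INSM1, INSM2, MYT1, MYT1L, ST18, SCRT1 and SCRT2 are 7 zinc-finger genes of the neuroendocrine (NE) and neuronal programme, and they were taken by name from the 20033 protein-coding genes of GENCODE release 44 on hg38. At each gene, accessible chromatin was read from ATAC-seq, an assay that uses the Tn5 transposase to cut and tag open DNA, in the established small cell lung cancer (SCLC) lines H82, of the NEUROD1 subtype, and H146, of another high-NE subtype. Both lines are labelled as wild type. Cells were untreated (4 H146 and 3 H82 samples) or had received 100 nM FHD-286, which blocks both SMARCA2 and SMARCA4, the ATPases of the SWI/SNF chromatin remodeller, for 14 days (3 samples in each line). The data were 1 atlas of regions per line, pooled by the authors over its untreated and treated samples, and within the gene body and 50 kb to either side of the 7 genes there were 190 of the 206927 H82 regions and 201 of the 174093 H146 regions.

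INSM1 and INSM2 are transcriptional repressors with an N-terminal SNAG domain, and INSM1 is used in pathology to recognise NE tumours. SCRT1 and SCRT2 are neuronal members of the Snail superfamily, also with a SNAG domain, which recruits the KDM1A and CoREST corepressor complex, and they bind E-boxes. MYT1, MYT1L and ST18 form a family with a different, C2HC type of zinc finger. MYT1L is known for keeping non-neuronal genes off in neurons.

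A region carried no read count, score or sample of origin. Untreated and FHD-286-treated cells could not be compared, the depth of the samples was unknown, and each value below is 1 value per line with no spread between replicates and no test. The lines also differed in the number of pooled samples, and differences in depth and in DNA copies cannot be told apart from the line. Per the methods of the study, the H146 samples were sequenced in 2 batches, with treated samples in only 1 of them. The sample labels do not give the batch. Over 19894 genes the median covered share, meaning the percentage of bases of this window that lay in a region, was 7.59% in H82 and 6.22% in H146, so that H82 was generally higher. The 2 atlases also had many region edges at the same base. Of 113588 pairs in which 1 region of each line overlapped only the other, 34514 (30.4%) had the same start, against a mean of 282 pairs for each offset of 1 to 10 bp. At the 7 genes 48 of 119 pairs (40.3%) had at least 1 edge at the same base, against 43.9% of all pairs. Whether some calls entered both atlases was not tested. The number of such pairs is therefore given for each gene.

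The first comparison asked whether the promoters of the 7 genes were accessible in both lines. The transcription start site (TSS, the 5′ end of the gene) had a region no more than 1 kb away in both lines at 6 of the 7 genes, where 75.4% of all protein-coding genes had one, and 4 of these 6 regions had no edge at the same base in the 2 lines. ST18 had none in either line, as did 17.7% of all genes. None of the 7 had a promoter region in H82 alone or in H146 alone, which were rare patterns over all genes (5.1% and 1.86%).

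**Figure D1:**
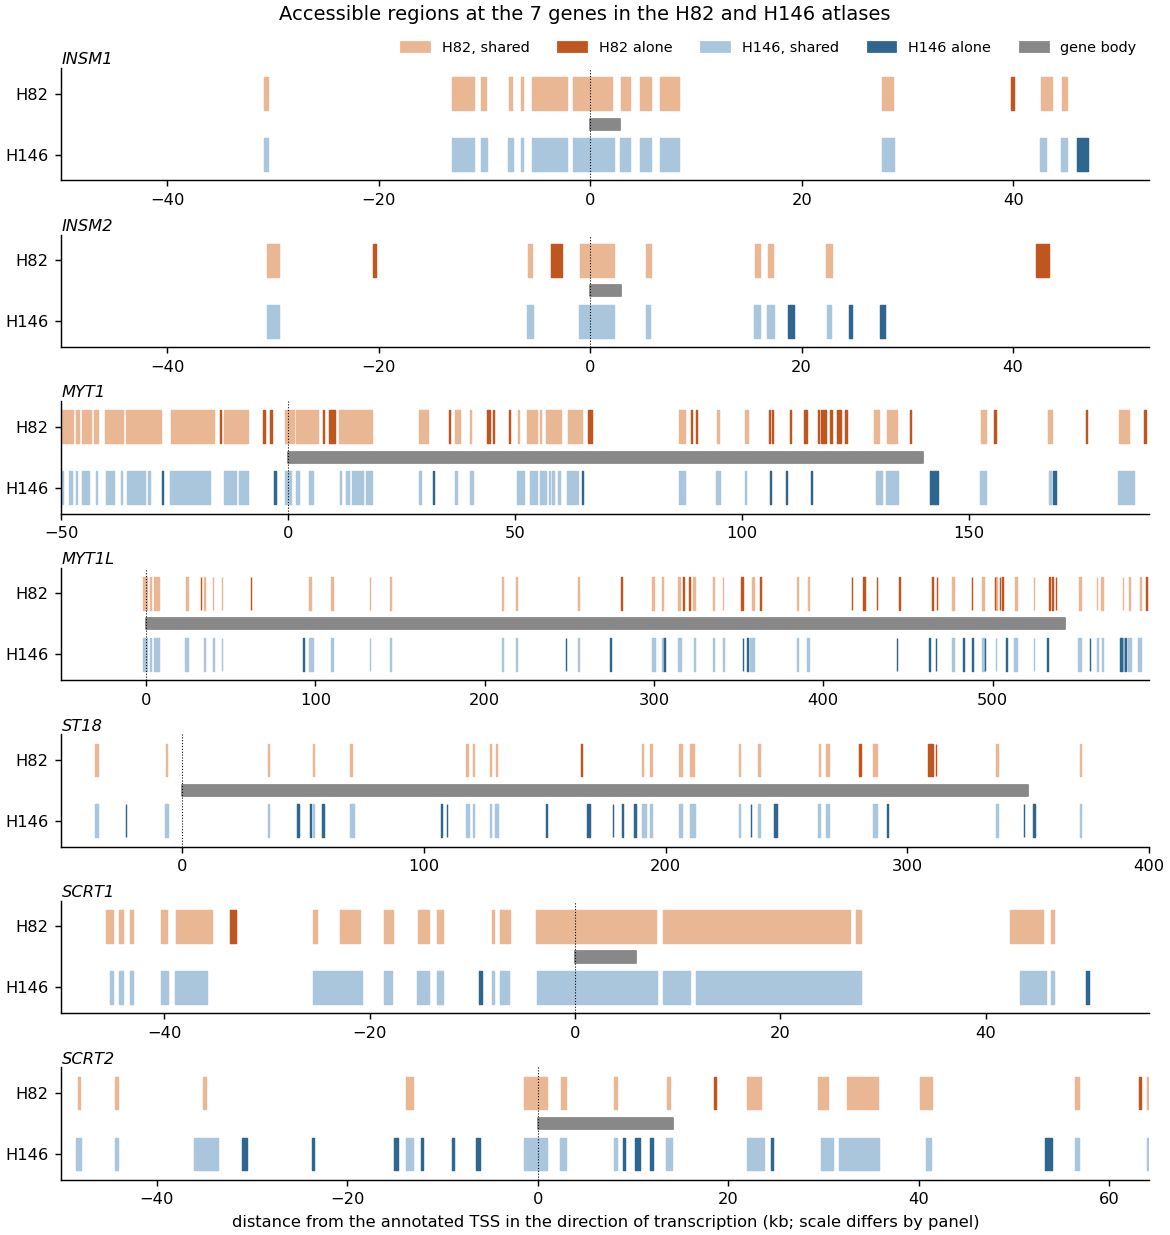
Regions of the H82 and H146 atlases at each of the 7 genes, plotted by distance from the TSS in kb along the direction of transcription. Pale boxes overlapped a region of the other line, dark boxes did not, the grey bar is the gene body and the dotted line the TSS. The INSM1 and SCRT1 maps were nearly the same in both lines, dark H82 boxes gathered in MYT1, and dark H146 boxes in ST18 and upstream of SCRT2.

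INSM1 (ENSG00000173404.5, chr20:20368104-20370949, plus strand), a gene of a single exon, had the most similar maps. Each line had 14 regions in the window of 102.846 kb, and 13 of them overlapped a region of the other line. H82 regions covered 16.6% of the window and H146 regions 17.5%, higher than in 77.8% and 86.4% of all genes. Regions were dense around the gene, where 8 regions of each line covered 56.6% and 59.6% of the bases less than 10 kb from the TSS. The TSS lay in a region of 3684 bp in H82 (chr20:20366500-20370183) and of 3930 bp in H146 (chr20:20366438-20370367), the widest of the locus in both lines. Next to it upstream was a region of 3246 bp in H82 and 3264 bp in H146, centred 3.86 and 3.87 kb from the TSS. The only line-only regions were distal, in the body of the neighbouring gene RALGAPA2, at 39.9 kb in H82 (315 bp) and at 46.5 kb in H146 (1042 bp). The Jaccard index, the bases in a region of both lines over those in a region of either, was 0.852, and 9 of the 13 pairs had an edge at the same base, 5 of them at both ends. Over 400 bins of 100 bp in both lines, 10 kb to either side of the TSS, the genes with the highest Jaccard index with INSM1 were FAM120B (0.672), UBE2M (0.669) and MELTF (0.667). The index depends on how much is covered: INSM1 had regions in 246 bins, these genes in 356, 293 and 264, and the median gene in 52.

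INSM2 (ENSG00000168348.4, chr14:35534164-35537054, plus strand), its single-exon relative, had 10 regions in each line, with 7 shared and 3 alone in each, and 2 of the 7 pairs had an edge at the same base. H82 regions covered 8.81% and H146 regions 7.95%, near the medians of all genes. The TSS region was nearly as wide as that of INSM1, with 3196 bp in H82 (chr14:35533193-35536388) and 3257 bp in H146 (chr14:35533132-35536388), and it ended at the same base in both lines. The H82-only regions were 20.4 and 3.15 kb upstream and 42.8 kb downstream, with widths of 294, 1005 and 1173 bp. The H146-only regions were all downstream, at 19.0, 24.6 and 27.7 kb, and narrower (515, 285 and 383 bp). The 250 bp before the TSS lay wholly in a region of both lines, were 74.8% G and C, higher than 89.2% of 35116 promoters, and held no match to the words searched here. They are shown as an example of a promoter that was open in both lines, from RefSeq on hg38 (chr14:35533914-35534163, plus strand).
INSM2: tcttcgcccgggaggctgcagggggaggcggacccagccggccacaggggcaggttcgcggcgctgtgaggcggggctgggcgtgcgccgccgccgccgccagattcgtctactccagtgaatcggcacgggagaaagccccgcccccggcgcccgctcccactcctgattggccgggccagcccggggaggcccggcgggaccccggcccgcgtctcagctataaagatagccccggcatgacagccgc

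SCRT1 (ENSG00000261678.3, chr8:144330565-144336482, minus strand) had the highest covered share of the 7 genes in both lines, 43.6% in H82 and 44.5% in H146, higher than in 97.4% and 98.9% of genes. Its whole body lay in 1 region of 11745 bp in H82 (chr8:144328579-144340323) and of 11749 bp in H146 (chr8:144328467-144340215). An even wider region followed downstream, of 18251 bp in H82 and 16053 bp in H146, in and beside DGAT1. Each line had 18 regions, of which 17 in H82 and 16 in H146 were shared, and the Jaccard index was 0.848. This is a crowded stretch, with the TSSs of 8 other protein-coding genes in the window (BOP1, HSF1, DGAT1, SLC52A2, TMEM249, ENSG00000271698, FBXL6 and ADCK5), all with a region in both lines, and 9 of 13 pairs had an edge at the same base.

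SCRT2 (ENSG00000215397.4, chr20:661596-675802, minus strand) differed from SCRT1 in that H146 had more regions, 25 against 16 in H82, and a covered share of 18.0% against 11.7%. The H146 share was 1.53 times that of H82, the only one of the 7 genes past 1.5-fold in either direction. The promoter region had the same 2363 bp in both lines (chr20:674861-677223), and 5 of 14 pairs at the locus had an edge at the same base. That region also held the TSS of ENSG00000270299, 0.002 kb from that of SCRT2, and the other gene with a TSS in the window, SRXN1, had a region there in both lines. Of the H146 regions 11 were in H146 alone, 6 of them upstream, 3 in the gene body and 2 downstream. The upstream ones were 6.29, 8.88, 12.1, 14.9, 23.6 and 30.7 kb from the TSS and between 200 and 538 bp wide. The 2 H82-only regions were both of 200 bp and lay downstream. The 50 kb upstream were covered to 14.9% in H146 and 5.81% in H82, the gene body to 25.4% and 15.0%, and the 50 kb downstream to 18.9% and 16.7%. In the 500 kb beyond the window on either side, H146 was also higher, 8.24% against 6.50%, which is 1.27-fold.

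The 250 bp before the SCRT2 TSS (RefSeq, hg38, chr20:675803-676052, minus strand) lay in a region of both lines and held 1 match to CAGGTG, the E-box form that Snail-type zinc fingers bind, and 1 to TAATCC, the word of OTX2, a homeobox factor of NEUROD1-type SCLC. Both are in capitals, read on the other strand. Of all promoters of this length 17.5% held CAGGTG and 5.62% held TAATCC on either strand.
SCRT2: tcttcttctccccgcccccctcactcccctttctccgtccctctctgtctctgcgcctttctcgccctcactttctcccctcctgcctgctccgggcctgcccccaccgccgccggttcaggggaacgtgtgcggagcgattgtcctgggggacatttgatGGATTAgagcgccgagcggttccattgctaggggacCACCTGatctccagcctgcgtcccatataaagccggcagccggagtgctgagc

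MYT1 (ENSG00000196132.14, chr20:64102394-64242253, plus strand) was the gene with the largest difference toward H82. H82 had 52 regions and covered 33.3% of the window, H146 had 46 regions and covered 22.7%, a ratio of 1.47. In the gene body alone the shares were 28.9% and 16.4%, a ratio of 1.77. The 50 kb upstream were covered to 68.3% in H82 and 48.3% in H146. The 50 kb downstream went the other way, with 10.7% and 14.8%. The excess of H82 was in line-only regions and in width. H82 had 25 line-only regions, 19 of them in the gene body, with 11.2 kb in all, and H146 had 9 with 4.15 kb. In 12 of the 19 one-to-one pairs H82 was the wider line, against 25.8% of all pairs in the atlases. The surroundings differed in the same direction: the 500 kb beyond the window on either side, cut at the end of the chromosome, were covered to 32.6% in H82 and 21.0% in H146, a ratio of 1.55. Only 3 of the 19 pairs had an edge at the same base.

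The region at the MYT1 TSS was 1806 bp wide in H82 (chr20:64101768-64103573) and 1325 bp in H146 (chr20:64101778-64103102). From 5 kb before to 20 kb after the TSS, H82 regions covered 62.7% and H146 regions 30.2%. A single H82 region of 7252 bp there, centred 14.8 kb into the gene, stood over 4 H146 regions of 219 to 2431 bp. From 100 to 120 kb into the gene, H82 had 8 regions, 7 of them line-only, and covered 19.6%, and H146 had 4 with 3 line-only and covered 5.96%. These 2 stretches were picked after their values were seen. The window also held the TSSs of RGS19, OPRL1, LKAAEAR1, NPBWR2 and PCMTD2, each with a region in both lines, and the widest regions of the locus lay upstream at other genes, at SOX18 and TCEA2 in H82 (10471 bp) and at OPRL1 in H146 (8961 bp). In the bins within 10 kb of the TSS, the highest Jaccard index with MYT1 was that of GPR3 (0.575), CACNA1G (0.555) and B3GALT6 (0.542). MYT1 had regions in 150 bins and these genes in 195, 217 and 160, again far more than the 52 of the median gene.

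MYT1 has 6 annotated TSS positions. H82 had a region at all 6 and H146 at 5, and the exception was a start 49.4 kb into the gene with an H82 region of 365 bp. A group of 4 starts, 62.1 to 62.2 kb in, lay in a region of 3000 bp in H82 and 2474 bp in H146, wider than those at the 5′ end. RefSeq places its MYT1 start there, and the 250 bp before it (hg38, chr20:64164202-64164451, plus strand) were 45.6% G and C with 1 match, in capitals, to TGTTTAC, the word of the FOXA factors, on the other strand. This word was in 2.98% of all promoters. The stretch lay in a region of both lines and is shown beside the G and C rich INSM2 promoter, since it had 2 CG steps where that one had 30.
MYT1: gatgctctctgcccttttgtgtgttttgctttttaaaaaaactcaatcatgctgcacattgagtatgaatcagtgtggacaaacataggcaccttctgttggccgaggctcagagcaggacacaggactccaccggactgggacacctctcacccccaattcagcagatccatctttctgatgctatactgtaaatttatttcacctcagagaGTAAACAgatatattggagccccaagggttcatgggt

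MYT1L (ENSG00000186487.21, chr2:1789113-2331664, minus strand) is the longest of the 7 genes at 542.552 kb. H82 had 56 regions with a covered share of 5.68%, and H146 had 51 with 6.91%, below and above the median of all genes, so that the line with more regions covered less. The 5′ end was alike in the lines, with a TSS region of 2651 bp in H82 (chr2:2330957-2333607) and 2739 bp in H146 (chr2:2330880-2333618), and an intronic region of 2799 and 2977 bp centred 6.21 and 6.19 kb in. Line-only regions numbered 21 in H82 and 17 in H146, with median widths of 357 and 383 bp, and 20 and 14 of them were in the gene body. H146 was the wider line in 26 of 33 pairs, and 10 of the 33 had an edge at the same base. The 500 kb beyond the window were covered to 6.11% in H82 and 10.7% in H146, a larger difference than at the gene. Of its 51 annotated TSS positions 34 had a region in H82 and 35 in H146. Many of these positions lay at the same region, so this is not a count of separate regions. At starts 352 and 489 kb into the gene, the H82 and H146 regions were line-only ones that did not overlap. The TSS of PXDN, its neighbour in the window, had a region in both lines.

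ST18 (ENSG00000147488.13, chr8:52110838-52460959, minus strand) was the only gene without a promoter region, and the bases less than 10 kb from its TSS were covered to 3.07% in H82 and 4.41% in H146. Even so, 4 of its 21 annotated TSS positions, between 207 and 239 kb into the gene, had a region in both lines, the widest of 1761 bp in H82 and 2411 bp in H146. H146 had 37 regions with a covered share of 5.99%, and H82 had 24 with 4.16%, so that H146 was 1.44 times higher. All but 4 of the H82 regions had a counterpart in H146, while 17 of the 37 H146 regions were in H146 alone, 15 of them in the gene body. These were narrow, with a median of 331 bp and a range of 200 to 922 bp. The widest H82-only region had 2065 bp and was an intronic one, 309 kb from the TSS (chr8:52150428-52152492). The 500 kb beyond the window were covered about equally, 3.26% in H82 and 3.29% in H146, and 10 of 20 pairs had an edge at the same base.

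**Figure D2:**
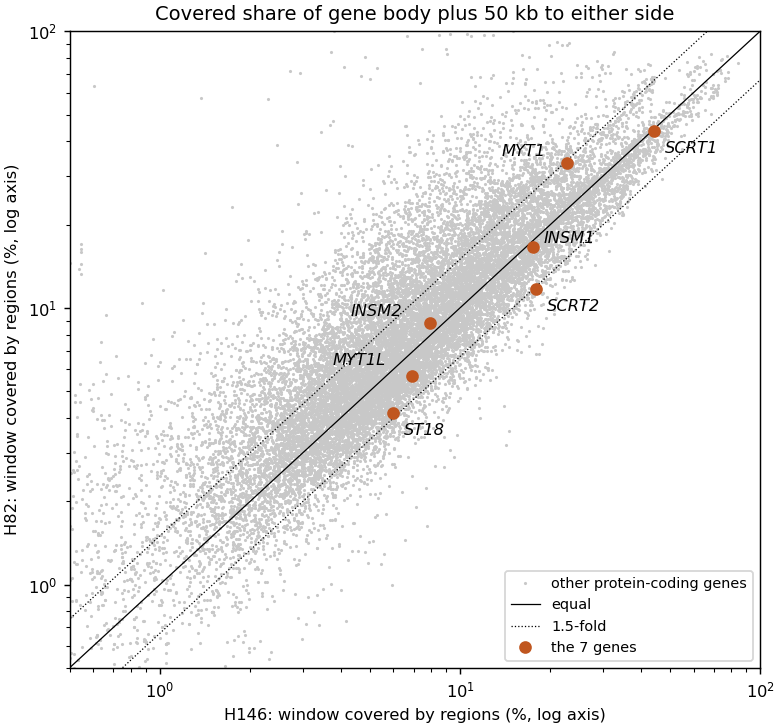
Percentage of the gene body and 50 kb to either side that lay in a region, H146 on the horizontal and H82 on the vertical axis, both logarithmic. Grey points are the other protein-coding genes, orange points the 7 genes, the solid line is equality and the dotted lines are 1.5-fold. MYT1 (22.7% and 33.3%) lay just under the upper dotted line, SCRT2 (18.0% and 11.7%) just below the lower one, and SCRT1 (44.5% and 43.6%) on the diagonal.

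Set side by side, the covered share was higher in H82 at 2 of the 7 genes, MYT1 and INSM2, where 64.2% of all genes were higher in H82. None of the 7 was 1.5-fold or more higher in H82, against 29.5% of all genes, and SCRT2 was the 1 gene 1.5-fold or more higher in H146, against 5.26%. The log2 ratio of the H82 to the H146 share had a median of -0.07 over the 7 genes and 0.19 over all genes. From lowest to highest it was -0.62 at SCRT2, -0.53 at ST18, -0.28 at MYT1L, -0.07 at INSM1, -0.03 at SCRT1, 0.15 at INSM2 and 0.55 at MYT1. The ratios of SCRT2 and ST18 stood low among all genes, above those of 4.58% and 6.66% of them. That of MYT1 was above those of 69.8%, so many genes leaned further toward H82. With 1 value per line, no genes in this order can be said to differ, whether neighbours or not. The median covered share of the 7 genes was 11.7% in H82 and 17.5% in H146, above the medians of all genes.

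**Figure D3:**
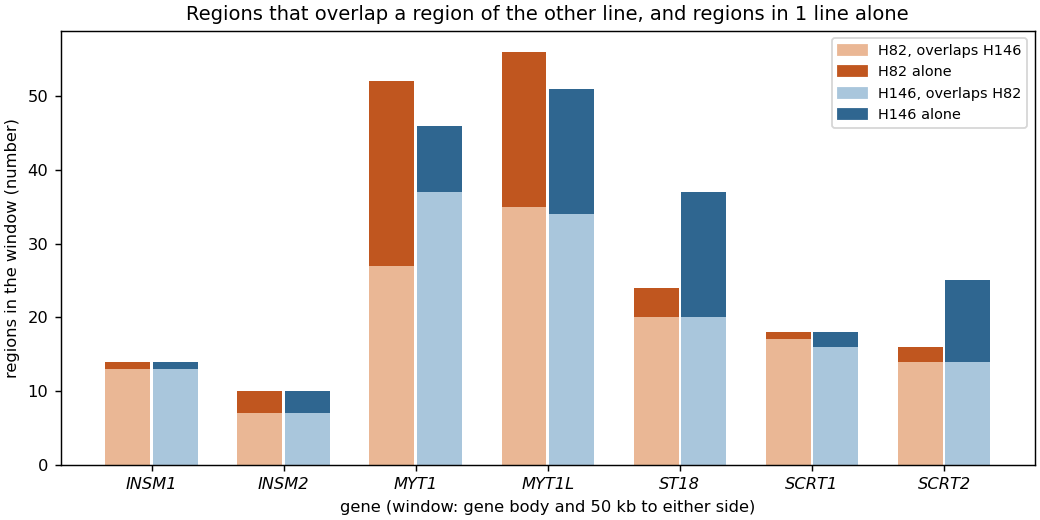
Number of regions in the window of each gene, H82 in orange and H146 in blue, with regions that overlapped the other line in pale and regions of 1 line alone in dark. The dark part was 25 of 52 for MYT1 in H82 and 17 of 37 for ST18 in H146, but 1 of 14 in both lines at INSM1.

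A similar part of the regions was shared in each line: 133 of 190 H82 regions (70.0%, 95% Clopper-Pearson interval 62.9 to 76.4%) and 141 of 201 H146 regions (70.1%, 63.3 to 76.4%). In the whole atlases 59.3% of H82 and 70.5% of H146 regions were shared. In each line 51 of the shared regions had an edge at the same base as in the other line, and without them 59.0% and 60.0% were shared. The intervals cover counting error only, and neighbouring regions of a locus are not independent. Shared regions were wider, with a median of 819 bp in H82 and 856 bp in H146 against 361 and 334 bp for line-only regions, as they were in the whole atlases (610 and 662 bp against 377 and 315 bp). Over all regions of the 7 genes the median width was 567 bp in H82 and 601 bp in H146. H146 was the wider line in 76 of 119 pairs (63.9%) and H82 in 27, against 57.1% and 25.8% of all pairs. Of the line-only regions 68.4% in H82 and 56.7% in H146 lay in an intron of the 7 genes themselves, against 45.9% and 46.8% of the shared ones. These shares depend on the genes, since INSM1 and INSM2 have a single exon. The longest genes, MYT1, MYT1L and ST18, held 25, 21 and 4 of the 57 H82-only and 9, 17 and 17 of the 60 H146-only regions. No such share was computed for the whole atlases. None of the line-only regions lay within 1 kb of the TSS of another protein-coding gene, while 14 shared regions in H82 and 13 in H146 did. This count was not made for the whole atlases either. Over all genes a promoter region in H82 alone (5.1%) or in H146 alone (1.86%) was rare, so the count says nothing particular about the 7 genes.

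Line-only regions were then read for 2 forms of the E-box, the word of proneural factors, on the hg38 reference and on both strands. CAGATG is the form preferred by NEUROD1, and CAGCTG is another common form. At least 1 of them was in 31 of 57 H82-only regions (54.4%) and 32 of 60 H146-only regions (53.3%), where the shares of all line-only regions were 58.6% and 45.4%. The density of CAGATG was 1.34 per kb in H82-only regions (36 matches, exact Poisson interval 0.936 to 1.85) and 0.862 per kb in H146-only regions (22 matches, 0.540 to 1.30). The intervals overlapped, and both values were near those of all line-only regions, 1.24 and 0.895 per kb. That of CAGCTG was 1.19 per kb in H82-only regions (0.812 to 1.68) and 0.979 per kb in H146-only regions (0.634 to 1.45), against 0.809 and 0.878 per kb in all line-only regions. MYT1 held 18 of the 32 CAGCTG matches in H82-only regions and 12 of the 36 CAGATG matches, and it supplied 25 of the 57 regions and 11.2 of their 26.9 kb. In shared regions the 7 genes had 0.812 and 0.738 CAGATG per kb, for H82 and H146, close to 0.821 and 0.793 in all shared regions.

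The line-only regions whose central 200 bp held the most of these words, outside untranslated regions and leaving aside the loci of ST18 and SCRT1, are printed from hg38, plus strand, with the words in capitals. In H82, a region of MYT1 that was itself 200 bp wide (chr20:64209084-64209283, intron, 107 kb from the TSS) held CAGCTG 3 times, and an intronic region of MYT1L (chr2:1899759-1900105, 432 kb from the TSS, of which chr2:1899832-1900031 is shown) held 2 CAGCTG and 1 CAGATG.
MYT1 in H82: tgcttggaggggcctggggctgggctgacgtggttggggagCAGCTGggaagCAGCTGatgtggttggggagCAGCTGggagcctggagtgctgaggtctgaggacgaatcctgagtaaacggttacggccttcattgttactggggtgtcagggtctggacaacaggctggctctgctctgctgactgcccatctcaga
MYT1L in H82: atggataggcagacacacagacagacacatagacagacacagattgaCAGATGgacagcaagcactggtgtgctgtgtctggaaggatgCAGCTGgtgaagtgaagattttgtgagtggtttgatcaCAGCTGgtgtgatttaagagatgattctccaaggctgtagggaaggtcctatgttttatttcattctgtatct

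In H146 it was a region of another intronic part of MYT1L (chr2:1823042-1823585, 508 kb from the TSS, of which chr2:1823214-1823413 is shown), with 2 CAGCTG. A region 6.29 kb upstream of SCRT2 (chr20:681891-682299, of which chr20:681995-682194 is shown) was one of many H146-only regions with 1 word, and it is printed as the nearest to the SCRT2 TSS of the 6 upstream regions in H146 alone.
MYT1L in H146: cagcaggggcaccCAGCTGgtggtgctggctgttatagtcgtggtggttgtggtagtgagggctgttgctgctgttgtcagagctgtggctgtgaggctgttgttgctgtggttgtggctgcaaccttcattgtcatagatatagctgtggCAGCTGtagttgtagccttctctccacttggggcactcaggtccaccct
SCRT2 in H146: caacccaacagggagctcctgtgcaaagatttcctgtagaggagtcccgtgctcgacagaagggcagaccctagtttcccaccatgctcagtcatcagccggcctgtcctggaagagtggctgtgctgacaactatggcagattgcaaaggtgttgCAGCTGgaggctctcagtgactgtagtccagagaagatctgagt
CAGCTG was found in the central 200 bp of 16.7% of all H82-only and 17.4% of all H146-only regions, and CAGATG in 25.1% and 16.9%. A word is a description of the sequence and not a bound site.

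Words of other factors were counted in the same way. The density of CAGGTG was 1.11 per kb in H82-only regions (0.751 to 1.59) and 1.96 per kb in H146-only regions of the 7 genes (1.45 to 2.58), against 1.05 and 1.61 in all line-only regions. Its extended form CAACAGGTG, the site of the SCRT proteins, which contains CAGGTG, was in none of the 57 H82-only and 60 H146-only regions and had 2 matches in shared regions of each line. That of TAATCC was 0.854 per kb in H82-only (0.541 to 1.28) and 0.392 per kb in H146-only regions (0.188 to 0.721), where all line-only regions had 1.26 and 0.448. The other words had too few matches in line-only regions to be read. TGTTTAC had 1 match in regions of H82 alone and 5 in those of H146 alone, or 0.037 and 0.196 per kb, against 0.130 and 0.315 per kb in all line-only regions. AAAGTTT, the word of the MYT1 family itself, had 3 and 1 matches, or 0.111 and 0.039 per kb, against 0.163 and 0.137. CAGGGGGC, part of the INSM1 motif, had 2 and 0 matches, where all line-only regions had 0.076 and 0.066 per kb. CAGGTG in shared regions had 1.61 per kb in H82 (1.44 to 1.79) and 1.76 in H146 (1.58 to 1.96). All shared regions had 1.40 and 1.41. CAGGGGGC had 0.192 and 0.178 there, against 0.128 and 0.124. TAATCC had 0.349 and 0.265, against 0.469 and 0.411. TGTTTAC had 0.084 and 0.097, against 0.159 and 0.173. AAAGTTT had 0.123 and 0.132, against 0.133 and 0.139. Why these values differ was not tested. RE1, the element of the neuronal repressor REST, read as TTCAGCACC and GGACAGC with any 2 bases between, is so rare, with 47 matches in all 122719 shared regions of H82, that its 0 matches at the 7 genes say nothing. In G and C content, H82-only regions had a median of 55.4% and H146-only regions 50.3%. These groups differ in the genes they come from, with 25 H82-only and 9 H146-only regions at MYT1 and 4 and 17 at ST18. No value over all line-only regions was computed.

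Other genes of the same pathway were set beside the 7. All 7 further SNAG or Snail-type zinc-finger genes, SNAI1, SNAI2, SNAI3, GFI1, GFI1B, OVOL1 and OVOL2, had a promoter region in both lines (75.4% of all genes), and the covered share was higher in H82 at 5 of them, near the 64.2% of all genes. Their median log2 ratio was 0.41, against 0.19 over all genes. The corepressors of SNAG and MYT1 factors read here were KDM1A, RCOR1, RCOR2, RCOR3, HDAC1, HDAC2, SIN3A and SIN3B. A promoter region was in both lines at 7 of 8, beside the same 75.4% of all genes. The covered share was higher in H82 at 7 of 8, beside the same 64.2%. The gene with the lower covered share in H82 was SIN3B. The gene without a promoter region was HDAC2, a histone deacetylase, with covered shares of 5.79% in H82 and 3.19% in H146. It had no region within 1 kb of the 5′ end of the gene in either line. The TSSs of its other transcripts were not read, so this does not show that its promoters were closed. Of the high-NE markers, SYP, CHGA, NCAM1 and DLL3 had a promoter region in both lines and NEUROD1, which defines the H82 subtype, in H82 alone, with covered shares of 21.5% in H82 and 6.33% in H146. Of the markers of a low-NE state, REST and YAP1 had a promoter region in both lines and NOTCH2 in neither. For these genes too, only the 5′ end of the gene was read and not the TSSs of other transcripts.

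**Figure D4:**
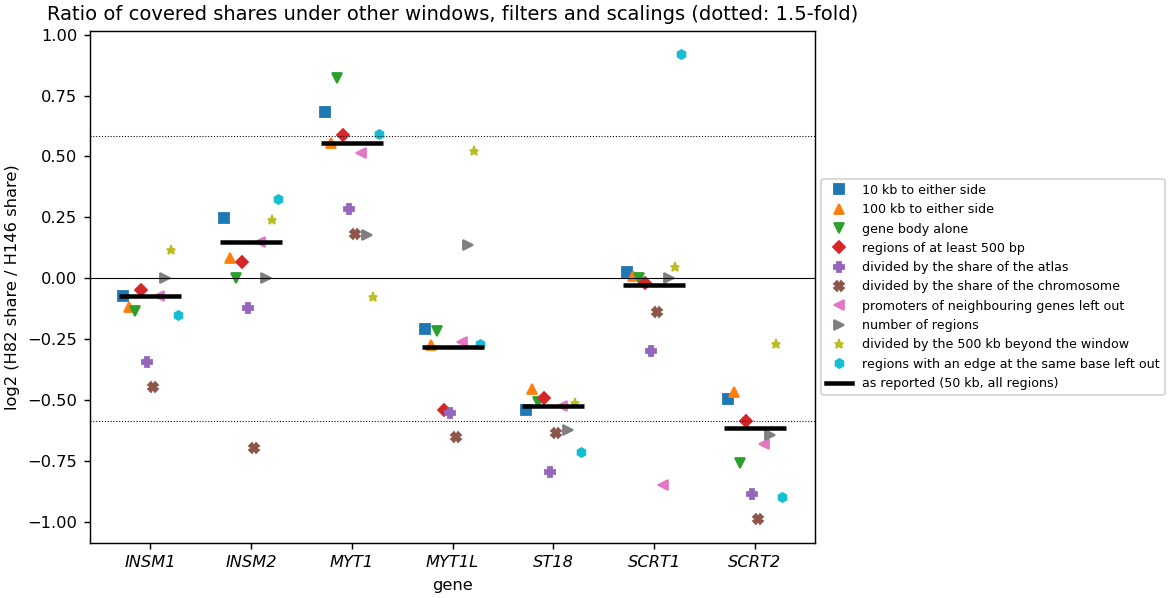
Log2 ratio of the H82 to the H146 covered share for each of the 7 genes. Black bars are the values reported above, symbols the values under 10 other windows, filters or scalings, and dotted lines 1.5-fold. ST18 and SCRT2 stayed below 0 throughout, SCRT1 ranged from -0.85 to 0.92, and MYT1 fell to -0.08 when divided by its surroundings. At each end of the SCRT1 range, a wide region was removed in 1 line and its counterpart kept in the other.

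The direction of these differences held for some genes and not for others when the window, filter or scaling was changed. SCRT2 and ST18 were higher in H146 under all 10 alternatives, between -0.99 and -0.27 for SCRT2 and between -0.80 and -0.45 for ST18. Division by the share of the atlas or of the chromosome could only lower these ratios, so those alternatives could not reverse them. MYT1 was higher in H82 under 9 of 10, the exception being the share divided by that of the 500 kb beyond the window (-0.08). MYT1L, lower in H82 in covered share (-0.28), was higher there in number of regions (0.13) and relative to its surroundings (0.52). INSM2 turned to -0.70 when divided by the share of its chromosome. INSM1 and SCRT1 were near 0 as reported. Leaving out the regions at promoters of neighbouring genes gave -0.85 at SCRT1. This removed the H82 region of 18251 bp and kept the H146 region of 16053 bp that overlapped it. Leaving out regions with an edge at the same base in both atlases gave 0.92 at SCRT1 and -0.90 at SCRT2. At SCRT1, 11 of 18 regions in each line were removed, among them the H146 region of 16053 bp, while the H82 region of 18251 bp was kept. Neither SCRT1 value therefore compares matched regions of the lines.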

How the data were processed

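ATAC-seq was done on 7 H146 and 6 H82 samples. Per the methods of the study and the submitters' processing notes, the authors trimmed reads with Trim Galore 0.4.4, aligned them to hg38 with bowtie2 2.3.4, removed duplicates with Picard, called regions per sample with MACS2 and merged the regions of a line within 500 bp. The deposited values are region starts and ends in bp, with no counts or scores, and the files had 0 further columns of values per sample. Depth per sample is unknown. Whether Tn5 ends were shifted is not given in the sources used here. A region was listed if called in any sample, so treated and untreated cells cannot be separated, and merging joins neighbouring sites.

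Chromosomes 1 to 22, X and Y (24) were used. Regions overlapping by at least 1 bp were called shared. For 0 regions did bedtools 2.31.1 give another call. Counting and coverage were tested on simulated intervals. Covered share was computed with Python 3.11.15 and numpy 2.4.6, with GENCODE release 44 and 1-based coordinates. Genes without a region in either line have no ratio. RefSeq promoters (hg38) matched 4 of the 7 genes (INSM2, MYT1, MYT1L and SCRT2), and those of MYT1L, which touch untranslated regions, are not printed. Motifs were exact words on both strands.

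The genes, lists, words and most alternatives were chosen with earlier results of these data known, and support nothing independently. Named by rule were the 7 genes, related genes lacking a promoter region, neighbouring genes with a TSS in the window, the 3 most similar maps for INSM1 and MYT1, and regions at the TSS, widest in a locus, or line-only with an E-box. Other named regions, and the second sequence for each line, were chosen after their values were seen. The share relative to the surrounding 500 kb and the removal of regions with an edge in common were added after seeing the data. The values of 1 high-NE marker gene are not reported here.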

Additional observations from a re-analysis of the deposited data

How the results depend on the processing

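The number of genes with a promoter region was 6 in each line with TSS windows of 500 bp and 5 kb and with regions of at least 500 bp, 7 with the TSSs of all transcripts, and 4 without regions that had an edge at the same base in both atlases. The number of genes with the higher covered share in H82, 2 as reported, was 1 with the gene body alone and after division by the share of the atlas or of the chromosome, and 4 after division by the surrounding 500 kb. The number at least 1.5-fold higher in H82, 0 as reported, was 1 with 10 kb to either side, with the gene body alone and with regions of at least 500 bp (MYT1 in each), and 2 without regions of a common edge (MYT1 and SCRT1). As reported, 1 gene was at least 1.5-fold higher in H146 (SCRT2). This number was 0 with 10 kb or 100 kb to either side and after division by the surrounding 500 kb. After division by the share of the atlas it was 2, as it was without the promoters of neighbouring genes, by number of regions and without regions of a common edge. After division by the share of the chromosome it was 4. For all genes, the shares beside these counts were computed only for the setting as reported. The counts under other settings therefore have no background and are not results about the 7 genes. Division by the share of the atlas lowered the ratio of every gene by the same factor, and division by that of the chromosome changed all genes of a chromosome alike.

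The shared percentage was 52.1% in H82 and 49.3% in H146 when 50% of both regions had to overlap, 77.9% in H82 for regions of at least 500 bp, and 59.0% and 60.0% without regions of a common edge. The median width was 1072 bp in H82 and 1143.5 bp in H146 for regions of at least 500 bp, since narrow regions were removed. An overlap of 50% of both regions can only lower the shared percentage. Regions with a common edge are shared by definition, so leaving them out lowers that percentage as well. The cause of the other changes was not tested. When promoters of neighbouring genes were left out, a region also at the gene's own TSS was kept. No paired analysis was possible because the atlases hold no value per sample, and for the same reason replicates could not be left out in turn. Depth is unknown.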
